A study of Mus musculus with 8 samples.

Results

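The genes described here are 9 chemokine receptors whose RNA was counted in bulk libraries of cultured mouse T-cell progenitors: Ccr2, Ccr4, Ccr7, Ccr8, Ccr9, Cxcr3, Cxcr4, Cxcr5 and Cxcr6. They were selected by gene symbol from a table of 24506 genes, and the selection was made with results of these 8 libraries already known. The values and fits below are therefore a description of these libraries and no independent support for any pattern. All 9 were found in the table, each at 1 locus, and 8 of them passed the filter on low counts. Cxcr3 did not, and is given by its counts alone. Ccr9 passed the filter through its late-gate libraries.

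The 8 libraries form 4 groups of 2. Late sgStat5 cells carried guides against Stat5a and Stat5b and were positive for the Bcl11b-mCherry reporter, late sgControl cells carried control guides in the same gate, and early sgStat5 and early sgControl cells were the reporter-negative counterparts. All groups came from B6 mice with CRISPR-Cas9, a Bcl2 transgene and the Bcl11b-mCherry/mCherry alleles, so the Bcl2 transgene is shared by the control cells. The age of the mice, the promoters of the transgenes and the target of the control guides are not given in the sources used here. Bone-marrow progenitors were held overnight with IL-7, Flt3l and SCF, infected with retrovirus carrying 3 guides per Stat5 gene or control guides, and grown for 6 days over OP9-DLL1 stromal cells, which present the Notch ligand DLL1, with IL-7 and Flt3l at 10 ng/ml each. Sorted cells were negative for other lineages and positive for the infection marker and CD25. In the labels the early gate is pre-commitment and the late gate post-commitment. The guides were delivered to a population, not a clone, so each library averages over cells with different edits.

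Chemokine receptors are G-protein-coupled receptors that steer cells along gradients of secreted chemokines. In the thymus, Ccr9 (receptor of Ccl25) and Ccr7 (receptor of Ccl19 and Ccl21) take part in the entry of progenitors from the blood and in their movement between cortex and medulla, and Cxcr4 (receptor of Cxcl12) helps hold progenitors in the cortex and supports the step at which the pre-T-cell receptor is tested. Ccr4 (receptor of Ccl17 and Ccl22) guides thymocytes and helper T cells, Cxcr5 (receptor of Cxcl13) draws B cells and follicular helper T cells into follicles, and Ccr2 (receptor of Ccl2) moves monocytes out of the marrow. Ccr8, Cxcr3 and Cxcr6 are best known from mature T cells and innate lymphocytes. STAT5A and STAT5B are transcription factors that act downstream of IL-7 and related cytokines.

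Total counts per library ran from 22146490 to 31209177. Values are CPM, counts relative to the scaled library total, for comparisons of 1 gene between libraries, and the authors' FPKM, which is per kilobase, for comparisons between genes. Both targeted genes were lower in sgStat5 cells in both gates. Stat5a stood at 116 and 107 CPM in late sgStat5, 257 and 238 in late sgControl, 106 and 105 in early sgStat5 and 258 and 257 CPM in early sgControl libraries. Its log2 fold change was -1.15 in the late gate (adjusted p = 0.00451 by edgeR's quasi-likelihood test over all genes, threshold 0.05) and -1.29 in the early gate (adjusted p = 0.0112), and the early call was lost without early sgControl replicate 1 (0.0717) or 2 (0.0559) or early sgStat5 replicate 2 (0.0611). Stat5b stood at 135 to 154 CPM in late sgStat5, 255 to 279.8 in late sgControl, 133 to 144 in early sgStat5 and 249 to 255 CPM in early sgControl libraries, with log2 fold changes of -0.89 in the late gate (adjusted p = 0.00876; 0.0528 without late sgStat5 replicate 2) and -0.86 in the early gate (adjusted p = 0.0280; 0.166 to 0.218 without any 1 early library). Bcl11b stood higher in the late gate in both arms, with 797 and 415 CPM in late sgStat5, 542 and 219 in late sgControl, 132 and 70.1 in early sgStat5 and 132 and 45.6 CPM in early sgControl libraries. The late over early difference passed with the replicate number fitted as a block (adjusted p = 3.76e-05 in sgStat5 and 0.000308 in sgControl cells) and not without it (0.0908 and 0.256). Il2ra, the gene of the sorted surface protein CD25, was 1374 and 1886 CPM in late sgStat5 against 2948 and 3075 CPM in late sgControl libraries, and 1980 and 2155 CPM in early sgStat5 against 3152 and 2887 CPM in early sgControl libraries. The arms did not overlap in either gate. The log2 fold change was -0.89 in the late gate (adjusted p = 0.0352) and -0.55 in the early gate (adjusted p = 0.339; 0.0362 with the block).

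All 12 T-cell progenitor markers were detected. Il7r, the gene for the alpha chain of the IL-7 receptor, rose in sgStat5 cells of both gates. It had 239.6 and 236 CPM in late sgStat5, 82.8 and 81.6 in late sgControl, 154 and 112 in early sgStat5 and 47.4 and 41.6 CPM in early sgControl libraries, without overlap between the arms of a gate. Its log2 fold change was 1.53 in the late gate (SE 0.15, adjusted p = 0.00596), a call that held without each library, and 1.58 in the early gate (SE 0.15, adjusted p = 0.0163), a call lost without early sgControl replicate 1 (0.175) or 2 (0.150). Thy1, a surface marker of the T lineage, rose in the late over the early gate in sgStat5 cells (log2 1.43, SE 0.20, adjusted p = 0.0482), a call that held without either late sgControl library and was lost without any other (0.0692 to 0.268). These were, with Il2ra, the progenitor markers called without the block. They were 2 of 12 in the late gate (1.71% of all genes called), 1 in the early gate (0.269%) and 1 across stages in sgStat5 cells (0.973%). With the block, 5 of the 12 were higher and 2 lower with Stat5 guides in the late gate (8.22% of all genes), and 1 was higher and 2 lower in the early gate (2.33%). Across stages 7 were higher and 3 lower in sgStat5 cells (22.8%), and 7 higher and 2 lower in sgControl cells (10.9%), in that fit. Bcl11b, whose reporter set the gates, is among those higher in both arms, so its call follows from the sort. Il2ra, the gene of the sorted CD25, is among those lower in sgStat5 cells. Markers of natural killer and innate lymphoid cells summed to 1869 to 2191 CPM in late sgStat5 against 1040 to 1597 CPM in late sgControl libraries. Most of this was Gzma (1707 and 1970 against 874 and 1410 CPM). Nkg7, the next in level, was lower in late sgStat5 libraries (90.2 and 116 against 123 and 127 CPM). In the late gate 0 of the 10 markers were called without the block (1.71% of all genes), and 2 were higher with it (8.22%). Their part in the late-gate results was not tested. In the early gate the marker sums overlapped, at 1606 to 1751 CPM in sgStat5 and 1422 to 1741 CPM in sgControl libraries.

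Cxcr4, Ccr2 and Cxcr5 made up most of the receptor RNA, with 88.7 to 97.8% of the counts of the 9 receptors in every library. On the FPKM scale, the mean levels in late sgStat5 cells ran from Cxcr4 (61.2) through Ccr2 (34.4), Cxcr5 (15.2), Ccr4 (2.57), Ccr9 (2.51) and Ccr7 (1.61) to Ccr8 (0.404), Cxcr6 (0.255) and Cxcr3 (0.041). Of these neighbours, Ccr4 overlapped Ccr9 and Ccr9 overlapped Ccr7, as did Ccr8 and Cxcr6, and Cxcr6 and Cxcr3. In late sgControl cells the order was Cxcr4 (54.3), Cxcr5 (34.1), Ccr2 (26.7), Ccr4 (9.45), Ccr7 (2.84) and Ccr9 (0.231), followed by Ccr8, Cxcr6 and Cxcr3. Ccr9 lay apart from Ccr7, whereas Ccr9 and Ccr8, Ccr8 and Cxcr6, and Cxcr6 and Cxcr3 overlapped. Early sgStat5 cells had Ccr2 (62.0) and Cxcr4 (45.0), which overlapped, then Cxcr5 (18.3), Ccr4 (2.48) and Ccr7 (1.39), and early sgControl cells had Ccr2 (43.2) and Cxcr4 (41.8), which overlapped, then Cxcr5 (33.1), Ccr4 (7.62) and Ccr7 (1.36). The rest lay below 0.5 FPKM in all early libraries. So Cxcr5 stood above Ccr2 in late sgControl cells and below it in the other 3 groups, with ranges apart in each.

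**Figure D1:**
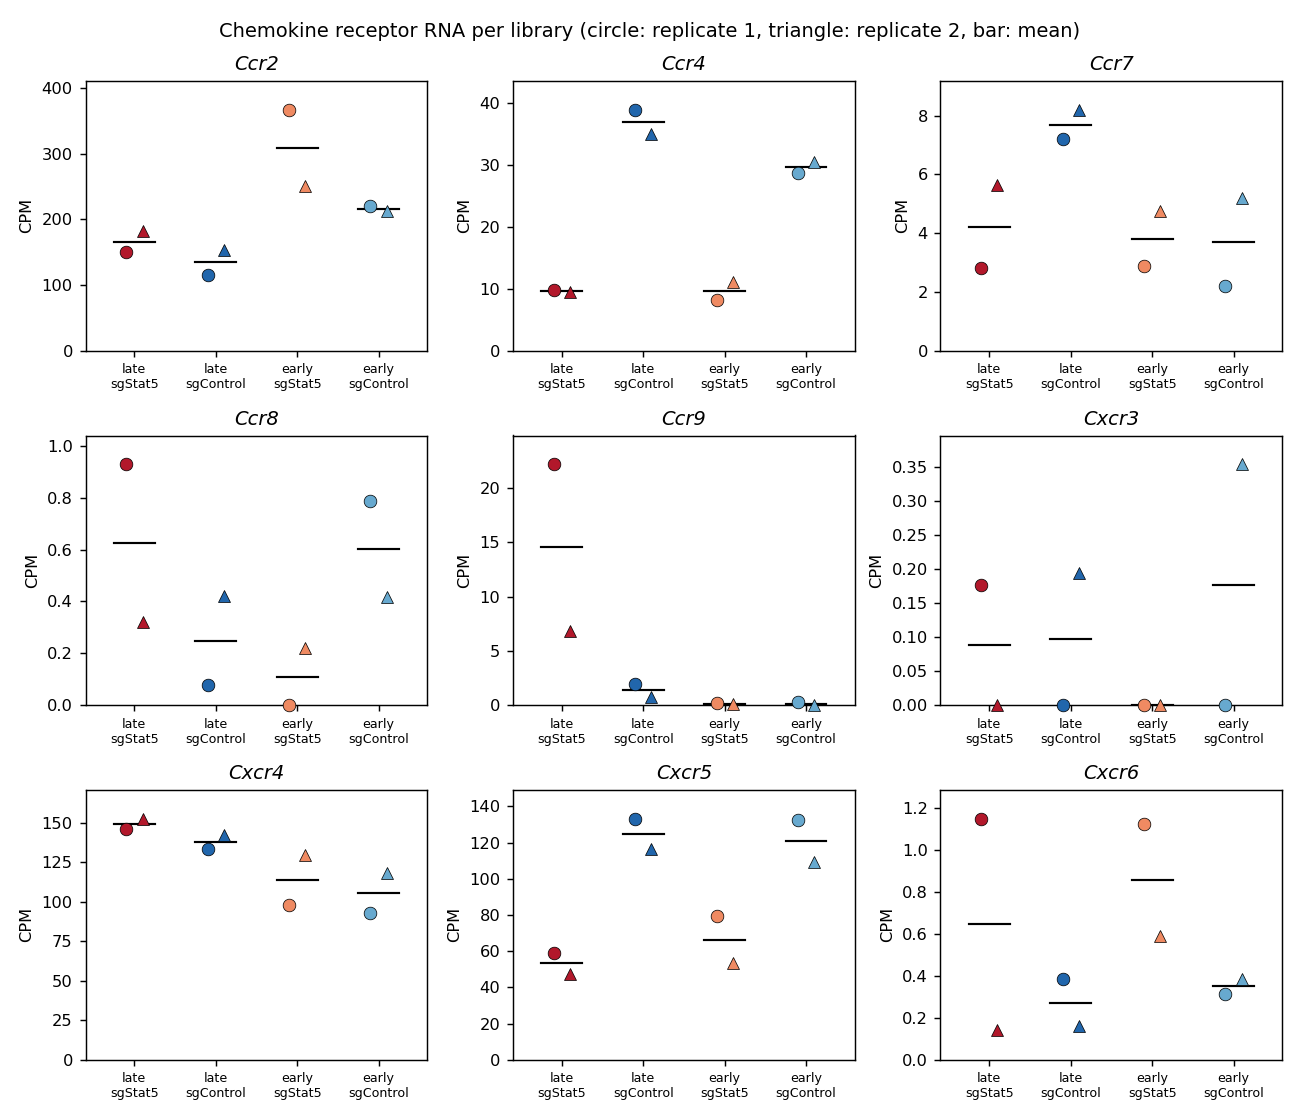
CPM of the 9 receptors in each of the 8 libraries, on a linear axis from 0 in each panel; circles are replicate 1, triangles replicate 2 and bars the mean of 2. Ccr4 and Cxcr5 lie lower in both sgStat5 groups than in the sgControl group of the same gate, Ccr9 is highest in the 2 late sgStat5 libraries, and Ccr2 is higher in the early than in the late gate.

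The first comparison asked which receptors differ with Stat5 guides in each gate. Ccr4 and Cxcr5 were the receptors called lower. In the late gate both passed the test (edgeR's quasi-likelihood test, with an adjusted p under 0.05 over 13775 genes), 2 of 8 receptors tested and both lower, where 1.71% of all genes were called. In the early gate 1 of 8 was called, Ccr4, also lower, where 0.269% of all genes were called. With the replicate number fitted as a block, 3 receptors were called in the late gate (Ccr9 higher, Ccr4 and Cxcr5 lower; 8.22% of all genes) and 2 in the early gate (Ccr4 and Cxcr5 lower; 2.33% of all genes). The median log2 fold change of the 8 receptors was 0.21 in the late gate, against -0.02 over all genes, and 0.0029 in the early gate, against -0.00012 over all genes, so the receptors did not shift in 1 direction. In bulk RNA, fewer cells that carry a receptor and less of its RNA per cell cannot be told apart.

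Ccr4 lies on chromosome 9, 114490316 to 114496544, on the minus strand (mm10). It had 9.77 and 9.50 CPM in late sgStat5 libraries, against 38.9 and 34.9 CPM in late sgControl libraries. In the early gate it had 8.13 and 11.1 CPM in sgStat5 libraries, against 28.7 and 30.5 CPM in sgControl libraries. All 4 sgStat5 libraries lay between 8 and 12 CPM and all 4 sgControl libraries above 28 CPM, so the arms did not overlap in either gate. Group means were 9.63 ± 0.188 CPM in late sgStat5 and 36.9 ± 2.80 CPM in late sgControl cells, and 9.63 ± 2.11 CPM in early sgStat5 and 29.6 ± 1.30 CPM in early sgControl cells (SD, n = 2 each).

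Ccr4 fell by 1.94 on the log2 scale in the late gate (SE 0.18, adjusted p = 0.00477), to 0.261 of the sgControl level, and it was the 29th of 13775 genes by p. In the early gate it fell by 1.62 (SE 0.18, adjusted p = 0.0213), to 0.326 of the sgControl level, as the 20th gene by p. The late-gate call held under 16 of 16 alternatives (adjusted p 1.08e-15 to 0.0441). The early-gate call held under 8 of 16, with log2 fold changes from -1.87 to -1.32. It was lost without early sgControl replicate 1 (adjusted p = 0.218) or 2 (0.166), early sgStat5 replicate 1 (0.110) or 2 (0.0611), late sgControl replicate 1 (0.0510), or late sgStat5 replicate 1 (0.0542) or 2 (0.0574), and with FPKM values without a filter (0.102). The size of the early and the late effect did not differ past the threshold (late minus early -0.32, SE 0.24, 95% interval -0.89 to 0.25).

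Cxcr5 lies on chromosome 9, 44511787 to 44526421, on the minus strand, and shares 110 exon bases with Bcl9l on the other strand, whose reads this unstranded kit would count with it. It had 59.1 and 47.5 CPM in late sgStat5 libraries, against 133 and 117 CPM in late sgControl libraries. Early sgStat5 libraries had 79.2 and 53.5 CPM, against 133 and 109 CPM in early sgControl libraries. Each sgStat5 library lay below each sgControl library of its gate, with the wider spread in early sgStat5 cells (66.3 ± 18.2 CPM, SD, n = 2).

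Cxcr5 fell by 1.23 on the log2 scale in the late gate (SE 0.21, adjusted p = 0.0403), to 0.427 of the sgControl level. That call was lost without late sgStat5 replicate 1 (adjusted p = 0.154) or 2 (0.177), late sgControl replicate 1 (0.127) or 2 (0.0953), or early sgControl replicate 1 (0.0701) or 2 (0.0669), and with FPKM values (0.0527, 0.0572 and 0.117 in 3 settings), while the log2 fold change stayed between -1.40 and -1.08. In the early gate the value was -0.87 (SE 0.21, adjusted p = 0.280), which passed with the replicate block (-0.88, SE 0.10, adjusted p = 0.00234). The late minus early difference was -0.36 (SE 0.29, 95% interval -1.05 to 0.33).

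**Figure D2:**
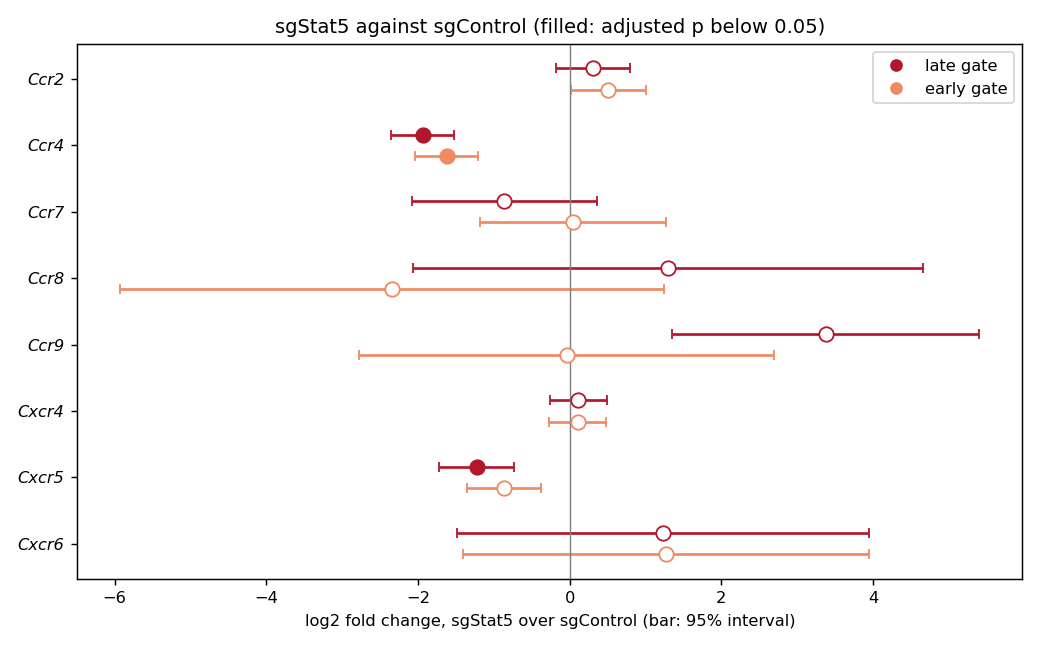
Log2 fold change of sgStat5 over sgControl for the 8 tested receptors in the late gate and the early gate, with 95% intervals from edgeR; filled circles have an adjusted p below 0.05. Ccr4 lies at -1.94 in the late and -1.62 in the early gate, Cxcr5 at -1.23 and -0.87, and Ccr9 at 3.38 and -0.04, with intervals of several log2 units for the sparsely counted Ccr8, Ccr9 and Cxcr6.

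The thymus-homing receptor Ccr9 had higher values in the sgStat5 libraries of the late gate. It lies on chromosome 9, 123767211 to 123783457, on the plus strand, and shares 1932 exon bases with the annotated RNA AC165425.1 on the other strand, so reads of the 2 cannot be told apart here. It had 502 and 192 counts (22.2 and 6.88 CPM) in late sgStat5 libraries, against 52 and 25 counts (1.99 and 0.807 CPM) in late sgControl libraries. Early sgStat5 libraries had 4 and 3 counts, against 7 and 1 counts in early sgControl libraries. Both late sgStat5 libraries lay above both late sgControl libraries, and all early libraries were near 0.

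The ratio of summed Ccr9 counts, scaled to library size, was 10.2 for late sgStat5 over late sgControl (95% interval 8.04 to 13.1) and 1.003 for early sgStat5 over early sgControl (0.310 to 3.16). These intervals cover counting error only, and the 2 replicates of late sgStat5 cells differed by more than that. In edgeR the late-gate log2 fold change was 3.38 (SE 0.86, adjusted p = 0.145) and passed with the replicate block (3.29, SE 0.38, adjusted p = 0.000877), under DESeq2 (adjusted p = 0.00129) and without a count filter (adjusted p = 0.0452). It was 2.30 without late sgStat5 replicate 1 (adjusted p = 0.729), 3.99 without replicate 2 of that group and 4.14 without late sgControl replicate 1. Over the 16 alternatives it ran from 1.40 to 4.14. The late minus early difference for Ccr9 was 3.41 (SE 1.43, adjusted p = 0.9998; 0.502 with the block).

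Beside Ccr9, Bcl11b was also higher in replicate 1 of every group, and in the late gate it was 797 and 415 CPM in sgStat5 against 542 and 219 CPM in sgControl libraries, a log2 fold change of 0.74 in the blocked fit (SE 0.14, adjusted p = 0.0106; 0.755 without the block). The Il2ra call of the late gate (-0.89, SE 0.14) rested on the libraries used: it was lost when any library other than late sgStat5 replicate 2 was left out, with adjusted p from 0.0711 to 0.157. The part of either in the Ccr9 result was not tested.

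Sequence upstream of the start is shown for Ccr4 and Ccr9. Without the block, Ccr4 was the receptor called lower in sgStat5 cells of both gates. Ccr9 had higher values in late sgStat5 than in late sgControl cells. The 250 bases before the RefSeq start of each gene (build GRCm38.p6) are at chr9:114496545-114496794 on the minus strand for Ccr4 and at chr9:123766961-123767210 on the plus strand for Ccr9, with E-boxes (CANNTG, the motif of basic helix-loop-helix factors) in capitals.
Ccr4: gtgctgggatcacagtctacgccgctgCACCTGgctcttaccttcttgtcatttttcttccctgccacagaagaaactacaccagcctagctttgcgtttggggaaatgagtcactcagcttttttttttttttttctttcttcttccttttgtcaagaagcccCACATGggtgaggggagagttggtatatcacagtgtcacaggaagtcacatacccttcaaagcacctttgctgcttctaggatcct
Ccr9: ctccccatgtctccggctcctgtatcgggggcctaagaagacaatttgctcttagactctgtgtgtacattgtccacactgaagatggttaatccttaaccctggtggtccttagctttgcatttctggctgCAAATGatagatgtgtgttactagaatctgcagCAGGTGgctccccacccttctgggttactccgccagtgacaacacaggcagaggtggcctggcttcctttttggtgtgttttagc
Each window held 2 E-boxes, which begin at positions -223 and -86 from the start for Ccr4 and at -118 and -85 for Ccr9. RefSeq windows of 300 bases, 250 before the start to 50 after it, were at hand for 7 of the 9 receptors. On both strands, neither the STAT motif TTCNNNGAA nor its form with 1 more base in the middle was in any of the 7, against 8.3% and 6.95% of 32851 mouse windows of this length. At least 1 E-box was in 6 of the 7, against 72.3% of all windows, and the E-box is its own reverse complement in outline, so 1 site is counted once. The RUNX motif TGTGGT was in 2 windows, those of Cxcr3 and Cxcr6, against 16.8% of all windows. The motif of GATA factors, searched for as AGATAA, was in 2 windows, those of Ccr2 and Ccr8, against 11.2% of all windows. In the Cxcr3 window 1 RUNX match overlaps an E-box. A match or its absence in so short a window says nothing of whether a factor binds the gene.

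Ccr7 (chromosome 11, 99144199 to 99155077, minus strand) had 2.83 and 5.63 CPM in late sgStat5 libraries, against 7.20 and 8.20 CPM in late sgControl libraries. Early sgStat5 libraries had 2.88 and 4.77 CPM, against 2.20 and 5.21 CPM in early sgControl libraries. The late groups did not overlap and the early ones did. The log2 fold changes were -0.86 (SE 0.52, adjusted p = 0.573) in the late gate and 0.04 (SE 0.52) in the early gate, and neither passed with the block.

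Cxcr4 (chromosome 1, 128588199 to 128592299, minus strand), the highest receptor of the late gate on the FPKM scale, had the narrowest interval. It had 146 and 152 CPM in late sgStat5 libraries, against 134 and 143 CPM in late sgControl libraries, and 98.0 and 129 CPM in early sgStat5 libraries, against 92.9 and 118 CPM in early sgControl libraries. The log2 fold change was 0.11 in both gates, with 95% intervals of -0.26 to 0.49 in the late gate and -0.27 to 0.48 in the early gate. The late-gate values of Ccr4 (-1.94) and Cxcr5 (-1.23) lie outside both intervals, but receptors were not tested against each other. The intervals rest on 2 libraries a group, are not adjusted for the number of genes and cover just the spread of these samples.

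Ccr2 (chromosome 9, 124102183 to 124109140, plus strand) had 366 and 250.6 CPM in early sgStat5 libraries, against 219.7 and 213 CPM in early sgControl libraries, which did not overlap. In the late gate it had 149.6 and 183 CPM in sgStat5 libraries, against 115 and 153 CPM in sgControl libraries, which did. Its log2 fold changes were 0.51 (SE 0.21, adjusted p = 0.750; 0.287 with the block) in the early gate and 0.31 (SE 0.21, adjusted p = 0.635) in the late gate. The 14 markers of myeloid and dendritic cells, which can carry Ccr2, summed to 104 and 85.1 CPM in early sgStat5, against 60.0 and 57.1 CPM in early sgControl libraries, led by Mpo (55.8 and 32.1 against 21.7 and 17.8 CPM), and none of the 14 was at 0 in all libraries. In the late gate they summed to 20.0 and 34.8 CPM in sgStat5, against 17.8 and 24.3 CPM in sgControl libraries. In the early gate Csf1r and Itgam were, like Mpo, higher in sgStat5 than in sgControl libraries without overlap, and Cd68 and Flt3 were lower. Lyz2, Fcgr3, Adgre1, Ly6c2, Itgax, Elane, S100a8, S100a9 and Siglech overlapped between the arms of that gate. With Stat5 guides 0 of the 12 tested markers were called in either gate, with or without the block. The shares of all genes called were 0.269% and 2.33% (with the block) in the early gate and 1.71% and 8.22% in the late gate. The part of these markers in the Ccr2 values was not tested.

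The receptors of mature T cells and innate lymphocytes were near the limit of detection. Ccr8 (chromosome 9, 120092133 to 120094906) had 21 and 9 counts in late sgStat5, 2 and 13 in late sgControl, 0 and 6 in early sgStat5 and 20 and 13 counts in early sgControl libraries. Cxcr6 (chromosome 9, 123806477 to 123811754) had 26 and 4 counts in late sgStat5, 10 and 5 in late sgControl, 25 and 16 in early sgStat5 and 8 and 12 counts in early sgControl libraries. In early cells Ccr8 was lower and Cxcr6 higher in sgStat5 libraries without overlap, yet neither passed in any comparison, with standard errors of 1.11 log2 units or more. How often 2 groups of 2 libraries did not overlap was not counted over all genes. A lack of overlap, here and elsewhere, is therefore a description only. Cxcr3 (chromosome X, 101731535 to 101734147) had 4 and 0 counts in late sgStat5, 0 and 6 in late sgControl, 0 and 0 in early sgStat5 and 0 and 11 counts in early sgControl libraries. The 0 counts over both early sgStat5 libraries allow a level of up to 0.0608 CPM, by 3 counts over the group, again for counting error only.

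Whether the effect of the guides differed between gates was tested for all genes as the late minus the early effect. No receptor was called, and 0% of genes (0 of 13775) were, with 302 genes at an unadjusted p under 0.05 (0 and 814 with the block, and 2 called by DESeq2). Effects that passed in 1 gate only, such as that of Cxcr5, are therefore not shown to differ between gates.

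The second comparison asked which receptors differ across commitment, the late gate over the early gate in each arm. Ccr9 rose in sgStat5 cells, 1 of 8 receptors called where 0.973% of all genes were. In sgControl cells 0 of 8 were called, where 0.0145% of all genes were (2 genes by edgeR, with 2049 at an unadjusted p under 0.05). In the same cells DESeq2 called 2 of 8 receptors, Ccr9 higher and Ccr2 lower, where it called 578 of 13775 genes. With the block, Ccr9 and Cxcr4 rose and Ccr2 fell in both arms, and Ccr7 also rose in sgControl cells, 3 of 8 receptors in sgStat5 cells (22.8% of all genes) and 4 of 8 in sgControl cells (10.9%). Each stage comparison rests on 2 libraries a group and shares its libraries with the comparisons of guides.

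Ccr9 rose by 6.62 on the log2 scale in sgStat5 cells (SE 1.06, adjusted p = 0.0486). It was kept by the count filter through the late-gate libraries, where it is high, so this call is a description only. In sgControl cells the value was 3.20 (SE 0.98, adjusted p = 0.253; 0.00662 with the block). The ratios of summed counts were 96.8 (95% interval 46.7 to 242) in sgStat5 cells and 9.53 (4.60 to 22.9) in sgControl cells, with intervals for counting error only. The sgStat5 call held when either late sgControl library was left out (adjusted p = 0.0371 and 0.0320 without replicate 1 and 2). It was lost without late sgStat5 replicate 1 (adjusted p = 0.287) or 2 (0.0704), early sgStat5 replicate 1 (0.263) or 2 (0.249), or early sgControl replicate 1 (0.0966) or 2 (0.0921). With FPKM values it was lost too (0.0672 to 0.114). Without early sgControl replicate 1, which had 7 of the 8 counts in its group, the sgControl value went to 5.23 (adjusted p = 0.631).

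Ccr2 was lower in the late gate in all 4 pairs of the same arm and replicate number. The log2 difference was -0.89 in sgStat5 cells (SE 0.21, adjusted p = 0.0819; 0.0103 with the block) and -0.69 in sgControl cells (SE 0.21, adjusted p = 0.252; 0.0490 with the block). The myeloid and dendritic marker sums given above were lower in the late gate as well, in both arms and without overlap. Not every marker followed the sum. Ly6c2 had 5.97 and 3.76 CPM in late sgStat5 libraries, against 1.48 and 0.480 CPM in early sgStat5 libraries. It had 5.90 and 2.26 CPM in late sgControl libraries, against 1.46 and 0.579 CPM in early sgControl libraries. Without the block 1 of 12 tested markers fell in sgStat5 cells (0.973% of all genes called) and 0 were called in sgControl cells (0.0145%). The 1 was Itgax, which encodes CD11c, with 2.65 and 3.84 CPM in late sgStat5 against 24.9 and 16.4 CPM in early sgStat5 libraries (log2 -2.66, SE 0.41, adjusted p = 0.0486), a call that held without either late sgControl library and was lost without any other (0.0795 to 0.301). In the blocked fit 4 of 12 fell and 1 rose in each arm, where 22.8% of all genes were called in sgStat5 and 10.9% in sgControl cells. That their RNA contributed to the Ccr2 difference was not tested.

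Cxcr4 was higher in the late gate without overlap in both arms, by 0.39 on the log2 scale in each (SE 0.16; adjusted p = 0.194 in sgStat5 and 0.327 in sgControl cells, and 0.0205 and 0.0383 with the block). Ccr7 was 1.05 higher in sgControl cells (SE 0.52, adjusted p = 0.391; 0.0485 with the block) and 0.15 higher in sgStat5 cells (SE 0.52, adjusted p = 0.890). For Ccr4 the late minus early value was -0.0009 in sgStat5 cells (95% interval -0.41 to 0.41) and 0.32 in sgControl cells (-0.08 to 0.72). For Cxcr5 it was -0.31 (-0.81 to 0.18) in sgStat5 and 0.05 (-0.44 to 0.53) in sgControl cells. The 2 receptors that were called lower with Stat5 guides thus had no called stage difference in either arm.

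**Figure D3:**
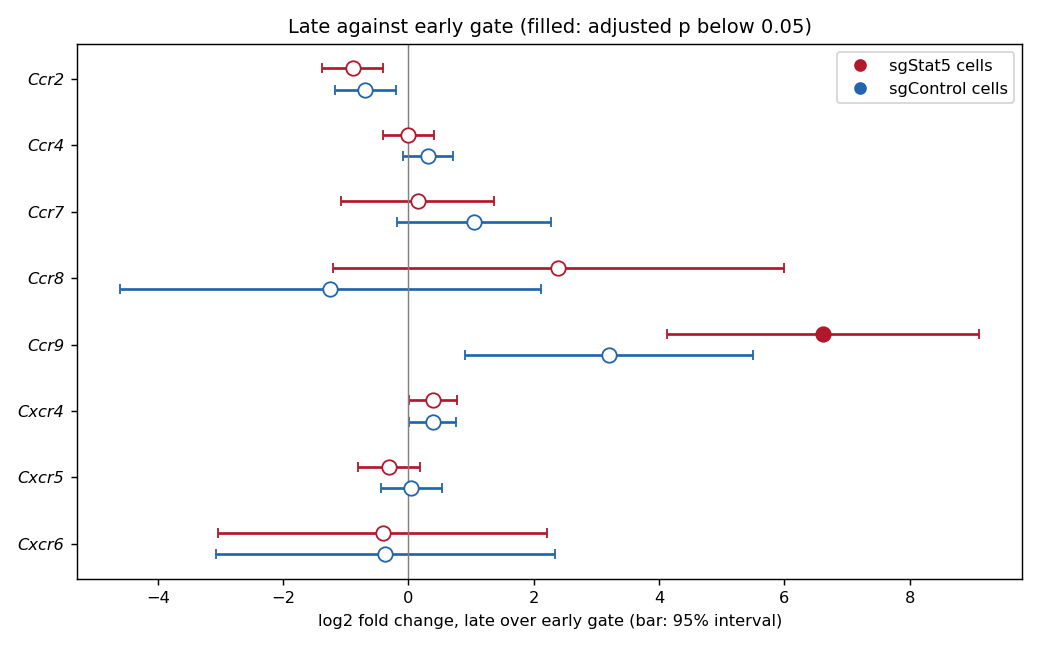
Log2 fold change of the late over the early gate for the 8 tested receptors in sgStat5 and sgControl cells, with 95% intervals from edgeR; filled circles have an adjusted p below 0.05. Ccr9 lies at 6.62 in sgStat5 and 3.20 in sgControl cells, Ccr2 at -0.89 and -0.69, and Cxcr4 at 0.39 in both arms.

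Ccr9, Cxcr6 and Ccr2 lie on the same strand within 342 kb of chromosome 9, with 23 kb between Ccr9 and Cxcr6 and 290 kb between Cxcr6 and Ccr2. Cxcr6 had 4 to 26 counts in a library. Fyco1, a gene on the other strand whose span includes Cxcr6, had 407 to 1223 counts.

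For each receptor, the 2 tested genes whose profile over the 8 libraries was nearest were found by the root mean square difference of log2 CPM, each centred on its own mean. For Ccr4 these were Stk39 (0.184 log2 units) and St8sia2 (0.203), for Cxcr5 Cables1 (0.161) and Cpne2 (0.182), and for Ccr2 Fam109b (0.131) and Aldh2 (0.134). Stk39, which encodes a kinase of ion-transport control, stood at 10.9 and 11.0 CPM in late sgStat5, 36.0 and 38.2 in late sgControl, 10.6 and 12.0 in early sgStat5 and 26.8 and 26.2 CPM in early sgControl libraries. For Ccr9 the nearest were Ptcra (0.687), which encodes the pre-T-cell receptor alpha chain, and Arl5c (0.778). Ptcra stood at 46.9 and 26.8 CPM in late sgStat5, 12.1 and 1.10 in late sgControl, 1.08 and 0.776 in early sgStat5 and 0.630 and 0.225 CPM in early sgControl libraries. For Cxcr4 the nearest were Cenpa (0.0555) and Fbxo5 (0.0632), both genes of cell division, and for Ccr7 Slc12a5 (0.238) and C130083M11Rik (0.255). The sparse Ccr8 (Gm5127 0.584, Lrig1 0.590) and Cxcr6 (Naalad2 0.338, Rps4l 0.401) had more distant neighbours. The nearest genes were found among 13775 and share the libraries, so a small distance is a description only.

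**Figure D4:**
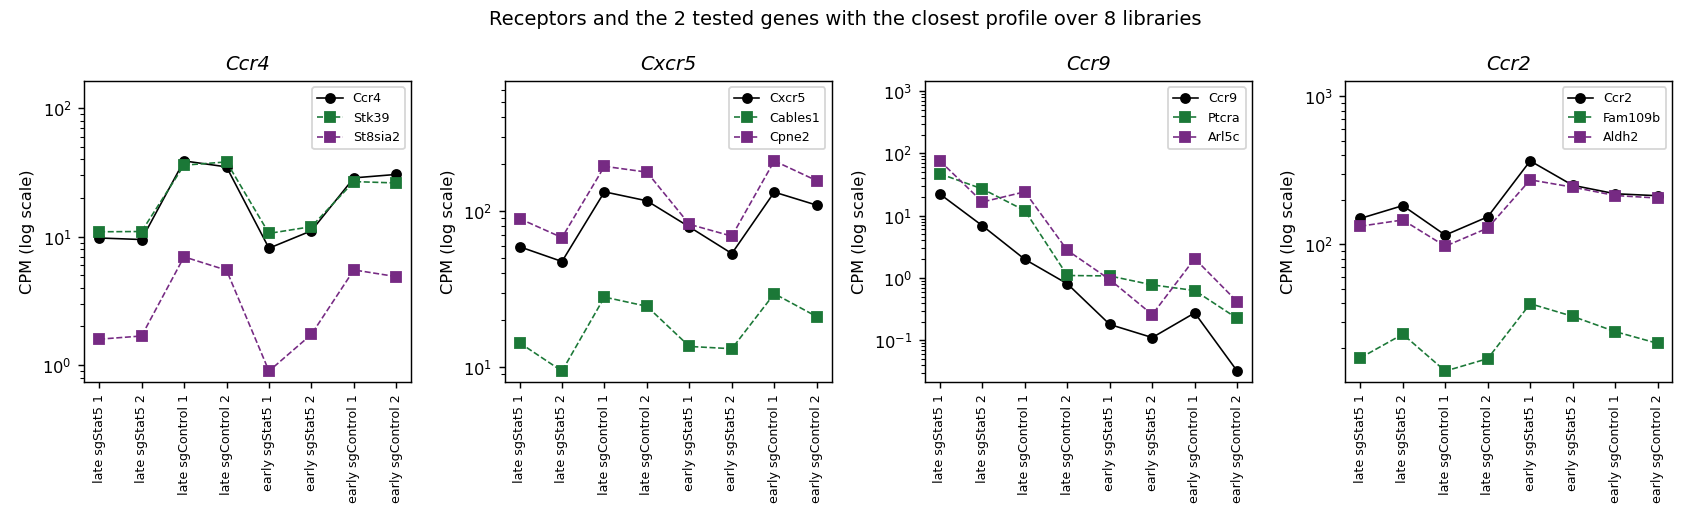
CPM, on a log axis, of Ccr4, Cxcr5, Ccr9 and Ccr2 and of the 2 tested genes nearest to each, in the 8 libraries (replicates 1 and 2 of late sgStat5, late sgControl, early sgStat5 and early sgControl). Ccr4 and Stk39 run close together in shape, and Ccr9, Ptcra and Arl5c are highest in late sgStat5 replicate 1.

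The rest of the chemokine system showed few calls. Of 15 other chemokine receptors, atypical ones included, 10 were tested and 0 passed in any comparison. Their summed level was 24.7 to 30.2 CPM in late sgStat5, 21.4 to 28.0 in late sgControl, 43.1 to 47.6 in early sgStat5 and 35.4 to 36.7 CPM in early sgControl libraries. In the blocked fit 1 of the 10 was lower in the late gate in each arm. That fit called 22.8% of all genes in sgStat5 and 10.9% in sgControl cells. The median log2 fold change of the 10, late sgStat5 over late sgControl, was 0.03, against -0.02 over all genes. Of 34 listed genes of receptor signalling (G proteins, arrestins, RGS proteins, and the Dock2-Rac and PI3K-gamma branches), 33 were tested and 0 passed in any comparison without the block. With it, Gnai3, Gng2 and Rgs1 rose and Pik3r5 fell in late sgStat5 against late sgControl cells (4 of 33, where 8.22% of all genes were called), and Pik3r5 alone fell in the early gate (1 of 33, against 2.33%). These 4 were named after their values were seen. Across stages, 3 were higher and 5 lower in sgStat5 cells (22.8% of all genes) and 3 higher and 1 lower in sgControl cells (10.9%) with the block. Pik3r5, a regulatory subunit of PI3K-gamma, differed by -0.67 in the late gate (adjusted p = 0.0195 with the block) and by -0.89 in the early gate (0.0165).

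Of 36 chemokine ligands, 14 were tested and 10 were at 0 in every library. Cxcl10, an interferon-induced ligand of Cxcr3, was the 1 called without the block, in the late gate, where 1.71% of all genes were. It had 3.45 and 12.3 CPM in late sgStat5 libraries, against 0.459 and 0.387 CPM in late sgControl libraries, and 2.29 and 4.88 CPM in early sgStat5 libraries, against 0.472 and 0.482 CPM in early sgControl libraries. It was higher without overlap in both gates, with a log2 fold change of 4.21 in the late gate (SE 0.74, adjusted p = 0.0447) and 2.90 in the early gate (SE 0.71, adjusted p = 0.283; 0.0378 with the block). The late call held when late sgStat5 replicate 1 was left out (adjusted p = 0.0433) and was lost when any other library was left out (0.0679 to 0.224). Across stages, the blocked fit called 2 of the 14 ligands higher and 1 lower in sgStat5 cells, where 22.8% of all genes were called. In sgControl cells it called 1 of the 14 lower, where 10.9% of all genes were called.

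Cxcl12, the ligand of Cxcr4, had 24.6 and 95.1 CPM in late sgStat5, 12.9 and 78.4 in late sgControl, 0.899 and 38.5 in early sgStat5 and 3.54 and 37.3 CPM in early sgControl libraries. It was higher in replicate 2 of every group, as was the sum of 12 markers of the OP9 stromal line (239 and 474, 216 and 544, 111 and 290, and 139 and 338 CPM in the same order of groups and replicates, with Lum at 0 throughout). Of these markers Pdgfrb went the other way and was higher in replicate 1 of every group. In early sgStat5 replicate 1 it held 110 of the 111 CPM, and Col1a1, Col3a1 and Fn1 were at 0. The part of stromal RNA in the Cxcl12 values was not tested. Ccl25, the ligand of Ccr9, was 1.38 to 2.65 CPM in all libraries.

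Of 15 other trafficking receptors 12 were tested, and 1 was called, in the late over the early gate of sgStat5 cells, where 0.973% of all genes were. P2ry10, a receptor for lysophospholipids, had 118 and 97.9 CPM in late sgStat5 libraries, against 44.7 and 38.0 CPM in early sgStat5 libraries (log2 1.39, SE 0.15, adjusted p = 0.0319), and 112 and 94.3 CPM in late sgControl libraries, against 52.2 and 48.9 CPM in early sgControl libraries (1.03, SE 0.15, adjusted p = 0.120; 0.000784 with the block). The sgStat5 call held without either late sgControl library and was lost without any other (adjusted p = 0.0692 to 0.263). With the block, 4 trafficking receptors were higher and 2 lower across stages in sgStat5 cells (22.8% of all genes called), and 4 higher and 0 lower in sgControl cells (10.9%). With Stat5 guides, 1 was higher and 2 lower in the late gate (8.22%), and 1 lower in the early gate (2.33%), in that fit.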

How the data were processed

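RNA from 8 sorted libraries, 2 per group, was analysed as deposited. Per the submitters' processing notes the tools were STAR 2.4.0 and RSEM 1.2.25, with bcl2fastq 1.8.4, and the build was GRCm38/mm10. The deposited counts are raw HOMER tags over the exons of 1 transcript per gene, per the file headers, and the authors' FPKM values come from the same program. The kit keeps no strand. Ccr7 and Ccr9 are given on another transcript in the FPKM table than in the counts. The test was edgeR 4.0.16 (R 4.3.3): filterByExpr (13775 of 24506 genes kept), TMM scaling, a two-sided quasi-likelihood F-test on all 8 libraries with 1 mean per group, and Benjamini-Hochberg adjustment over all tested genes with a threshold of 0.05. SE is the absolute log2 fold change over the square root of F. Alternatives were RLE scaling, no count filter, CPM of at least 1 in 2 libraries, DESeq2 1.42.0, the replicate block, each library left out, and limma 3.58.1 on log2(FPKM + 1) and log2(FPKM + 0.1). The unblocked fit was also run on simulated counts, with libraries drawn independently. Its outcome is not given here and supports no result above.

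The replicate numbers recur in every group. Across genes, the deviations of same-numbered libraries from their group means correlated (6 coefficients, 0.421 to 0.578), so the numbers were also fitted as a block and the blocked value is given where it changes a call described here, with list members given as counts. Whether replicates were separate cultures or animals is not given in the labels, and p-values cover just the spread of these samples, which may be technical. The chi-square per degree of freedom between replicates was 22.7 to 62.0. The members, gene lists and tests were chosen with earlier results of these data known. All 9 receptors are named; of the lists, members that passed in a comparison of 2 groups without the block (at most 5 per list and comparison), and the levels of Cxcl12 and Ccl25; and per tested receptor the 2 nearest profiles. Of the other chemokine receptors, counts are given without names.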

Additional observations from a re-analysis of the deposited data

Results flagged for a closer look

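Cxcr5 was lower in the late than in the early gate in both sgStat5 pairs of the same replicate number (log2 differences of -0.42 and -0.17) and slightly higher in both sgControl pairs (0.0059 and 0.09). The difference between these stage differences, sgStat5 minus sgControl, was -0.36 on the log2 scale (SE 0.29, adjusted p = 0.9998 over all genes; 0.817 with the replicate block), so it did not pass. The sgStat5 libraries of the 2 gates overlapped, as did the sgControl libraries.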

How the results depend on the processing

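Of the 51 log2 fold changes recomputed, 791 values in all, 38 changed sign in 12 results, 0 of which was called in either form. The receptors called in the late gate (2 of 8) were 3 without a filter, with the block and with DESeq2, 1 with each of 3 FPKM settings and 1 to 2 with a library left out; those in the early gate (1) were 2 with the block and DESeq2, 0 with FPKM without a filter and 0 to 1 with a library left out. Late over early, sgStat5 cells (1) gave 2 without a filter, 3 with the block, 2 with DESeq2, 0 with each FPKM setting and 0 to 1 with a library left out, and sgControl cells (0) gave 4 with the block and 2 with DESeq2. Over all genes, 235 calls in the late gate became 1132 with the block, 629 with DESeq2, 143 with FPKM without a filter and 63 to 151 with a library left out. The 37 of the early gate became 114 without a filter, 321 with the block, 247 with DESeq2, 13 with unfiltered FPKM and 0 to 30 with a library left out. For the late minus early effect, 0 became 2 with DESeq2. Late over early, the 134 of sgStat5 cells became 760 without a filter, 3144 with the block, 1684 with DESeq2, 24 with unfiltered FPKM and 0 to 529 with a library left out, and the 2 of sgControl cells became 83, 1507, 578, 6 and 0 to 32 in the same settings. The causes were not tested. Where a library was left out, the lone sample of its group was assumed to vary like the other groups. Ccr8, Cxcr6 and Cxcr3 are limited by depth, with at most 26 counts in a library.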
